A study of Mus musculus with 15 samples.

Results

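Long noncoding RNA (lncRNA) promoters marked by H3K4me3 in mouse liver were collected as follows. The enriched regions, which the peak caller SICER2 names islands, of 15 libraries were merged where they overlapped or touched, which gave 74158 regions. Of these, 622 (0.839%) lay within 1 kb of a transcription start site (TSS) of a gene typed lincRNA or antisense in GENCODE M21 (mm10) and had no TSS of a protein-coding gene within 5 kb. They are called lncRNA promoter regions here. For comparison, 12566 regions lay at TSSs of protein-coding genes, and 53088 regions lay over 5 kb from every annotated TSS.

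The livers came from 15 female C57BL/6 mice (C57BL/6J in the study's methods), 3 per diet and 1 library per mouse. The mice were taken from 6 litters at 3 months of age and fed for 10 months. The age in the labels is 12 months. The diets were a standard diet ad libitum (SD), calorie restriction (CR), a high-fat diet ad libitum (HF), a yellow corn-based diet ad libitum (YD) and a purple corn-based diet ad libitum (RD). Chromatin was extracted by PAT-ChIP from sections of formalin-fixed, paraffin-embedded liver and selected with an antibody to H3K4me3.

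H3K4me3, trimethylation of lysine 4 of histone H3, is laid down around the start sites of genes transcribed by RNA polymerase II and is strongest where the promoter is rich in CpG. Long noncoding RNAs are transcribed by the same polymerase. Many have few CpGs at their start and are made at low levels in few tissues, while a small set, such as Malat1, Neat1 and Xist, is made in large amounts and acts in the nucleus. Antisense transcripts such as Kcnq1ot1 and Airn start inside a coding gene on the opposite strand and silence neighbouring imprinted genes in cis.

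The sequences of 8 promoter windows are shown because the results turn on them. Each runs from 250 bases before an annotated TSS through the first 50 bases of the first exon, read 5′ to 3′ on the strand of the gene from the mm10 (GRCm38) genome. Capitals mark each CpG, and 10 or more CpGs in a window is called CpG-rich below. For Lncpint, Ftx, BC002059 and EU599041 the TSS is an internal one of the gene, while for the others it is the 5′ end. The first set holds regions with an island in every list. The TSSs of Malat1, Xist and Lncpint lie outside the body of every coding gene and that of Kcnq1ot1 lies inside the body of Kcnq1. In RefSeq, Tsix overlaps the Xist region and 2210408F21Rik the Lncpint region.
Malat1, chr19:5802623-5802922, minus strand: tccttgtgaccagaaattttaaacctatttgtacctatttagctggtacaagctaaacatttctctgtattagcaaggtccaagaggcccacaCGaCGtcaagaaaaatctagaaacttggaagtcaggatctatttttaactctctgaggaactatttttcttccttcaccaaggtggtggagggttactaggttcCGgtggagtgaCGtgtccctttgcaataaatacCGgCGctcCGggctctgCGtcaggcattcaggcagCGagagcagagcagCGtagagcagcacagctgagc
Xist, chrX:103483205-103483504, minus strand: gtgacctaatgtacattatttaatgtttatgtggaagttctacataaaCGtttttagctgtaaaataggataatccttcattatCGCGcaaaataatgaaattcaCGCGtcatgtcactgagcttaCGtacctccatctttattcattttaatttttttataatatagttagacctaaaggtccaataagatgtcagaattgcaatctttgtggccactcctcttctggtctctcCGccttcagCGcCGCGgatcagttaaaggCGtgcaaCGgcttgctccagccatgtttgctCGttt
Kcnq1ot1, chr7:143296500-143296799, minus strand: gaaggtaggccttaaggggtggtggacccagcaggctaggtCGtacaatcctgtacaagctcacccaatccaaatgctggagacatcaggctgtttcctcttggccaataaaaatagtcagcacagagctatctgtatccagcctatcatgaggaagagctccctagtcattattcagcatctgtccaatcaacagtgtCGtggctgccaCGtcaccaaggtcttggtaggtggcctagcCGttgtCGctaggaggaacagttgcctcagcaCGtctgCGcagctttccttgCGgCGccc
Lncpint, chr6:31218297-31218596, minus strand: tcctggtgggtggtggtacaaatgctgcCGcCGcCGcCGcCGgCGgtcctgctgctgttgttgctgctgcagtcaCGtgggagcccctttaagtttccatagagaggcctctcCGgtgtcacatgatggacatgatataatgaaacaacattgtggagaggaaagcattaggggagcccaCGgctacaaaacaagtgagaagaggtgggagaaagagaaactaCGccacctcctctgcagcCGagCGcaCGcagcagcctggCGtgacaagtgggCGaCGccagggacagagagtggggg

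The next set holds windows of regions whose islands were found in some diets and not in others. Jpx and Ftx start in the X-inactivation centre, where Xist also lies, and their windows hold 27 and 37 CpGs. The window of EU599041, a lincRNA gene on chromosome 7, holds 1.
Jpx, chrX:103493306-103493605, plus strand: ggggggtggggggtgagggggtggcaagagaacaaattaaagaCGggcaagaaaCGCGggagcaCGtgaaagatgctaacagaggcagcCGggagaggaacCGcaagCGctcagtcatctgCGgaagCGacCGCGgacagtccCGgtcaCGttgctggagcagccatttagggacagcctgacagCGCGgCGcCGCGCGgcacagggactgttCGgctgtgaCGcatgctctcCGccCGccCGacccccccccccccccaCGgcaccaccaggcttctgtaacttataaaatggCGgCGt
Ftx, chrX:103616814-103617113, minus strand: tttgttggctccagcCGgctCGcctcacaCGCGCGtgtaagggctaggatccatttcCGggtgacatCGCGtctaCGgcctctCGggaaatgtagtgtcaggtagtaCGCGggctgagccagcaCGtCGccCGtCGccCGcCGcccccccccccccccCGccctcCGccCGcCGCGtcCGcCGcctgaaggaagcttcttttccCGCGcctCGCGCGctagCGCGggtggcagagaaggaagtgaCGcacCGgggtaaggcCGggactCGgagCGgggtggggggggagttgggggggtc
EU599041, chr7:43223325-43223624, plus strand: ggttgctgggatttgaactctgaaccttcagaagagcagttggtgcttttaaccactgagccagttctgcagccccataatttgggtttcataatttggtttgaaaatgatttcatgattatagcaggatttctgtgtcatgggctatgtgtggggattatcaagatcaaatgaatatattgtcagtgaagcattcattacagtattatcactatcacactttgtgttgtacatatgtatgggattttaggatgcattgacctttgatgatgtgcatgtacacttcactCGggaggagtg

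BC002059 had the widest islands of all 622 regions on average. Its window, which holds no CpG, is part of a repeated stretch of zinc finger coding sequence described below.
BC002059, chr17:16972660-16972959, plus strand: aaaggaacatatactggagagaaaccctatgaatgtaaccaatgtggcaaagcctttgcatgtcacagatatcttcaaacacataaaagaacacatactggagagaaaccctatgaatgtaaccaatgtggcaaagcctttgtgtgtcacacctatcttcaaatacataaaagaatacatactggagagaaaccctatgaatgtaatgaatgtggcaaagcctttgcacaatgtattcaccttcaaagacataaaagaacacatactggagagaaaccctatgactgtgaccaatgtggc

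The lists held between 7825 islands (YD_1) and 33752 (CR_3), and the reads behind them, recovered from the score steps, ranged from 5589269 (CR_1) to 15449854 (YD_1). CR_3 and RD_2 had the longest lists and stood apart from the other libraries of their diets. The liver label was checked by islands at marker promoters. All 10 hepatocyte markers had an island in 8 to 15 lists, and the 5 T and B cell markers and the 5 neuron markers had one in none. Of 5 muscle markers 4 were at 0, and Mylpf was in 15. Cholangiocyte, Kupffer cell, stellate and endothelial markers were found in at most 7 lists each.

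Most lncRNA promoter regions were found in few mice. Of the 622, 244 (39.2%) had an island in 1 list, 117 (18.8%) in 8 or more and 24 (3.86%) in all 15, with a median of 2 lists. Coding promoter regions were found in a median of 10 lists, with 11.6% in 1 list, 61.4% in 8 or more and 13.7% in all 15. Regions away from every TSS stood at the other end, with a median of 1 list, 2.19% in 8 or more and 0.237% in all 15. The lncRNA promoter regions thus stood between both classes at each of these marks. CR_3 and RD_2 held 81 (33.2%) of the 244 regions found in 1 list.

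**Figure D1:**
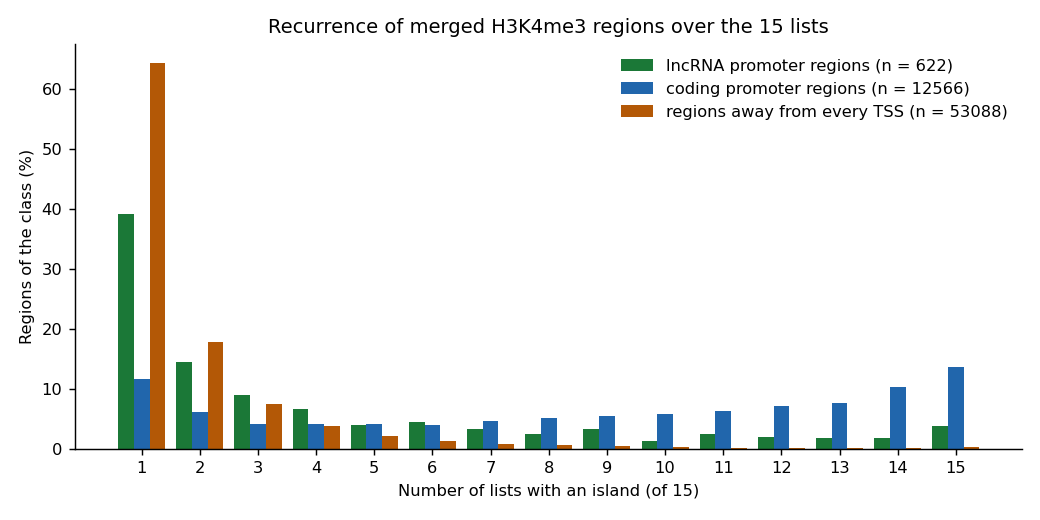
Percentage of the regions of each class (y axis) found in 1 to 15 lists (x axis), for lncRNA promoter regions (green, n = 622), coding promoter regions (blue, n = 12566) and regions away from every TSS (brown, n = 53088). The green bars are tallest at 1 list (39.2%) and rise again at 15 lists (3.86%), while the blue bars are highest at 15 lists (13.7%).

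The regions carried 607 lncRNA gene symbols. Counted separately, 5921 lncRNA genes had every TSS over 5 kb from a coding TSS. A gene at a region need not be among these, since another of its TSSs may lie near a coding gene. By type, 522 were at lincRNA genes alone, 98 at antisense genes alone and 2 at both. Each type had a median of 2 lists, with 19.5% of lincRNA and 14.3% of antisense regions in 8 or more lists, and a median island width of 1800 bp in both. The TSS lay inside a coding gene in 71 regions (11.4%), where the mark cannot be assigned to a strand. The median distance to a coding TSS was 63431 bp. Another 1123 regions at a lncRNA TSS had a coding TSS within 5 kb and were not counted, so many lncRNAs that share a promoter with a coding gene are outside the set. Chromosome 13 held the most regions, 61, and chromosome X the fewest, 10.

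The more lists a region was in, the wider its islands, the higher their scores. Median island width was 1600 bp in regions of 1 list, 1800 bp in 2 to 7 lists, 2000 bp in 8 to 14 lists and 4800 bp in 15 lists. The score was used only as a percentile within its own list, since it is not scaled between libraries. The median percentile was 25.1, 36.1, 56.9 and 88.2 in the same order. The leading TSS lay inside an island in 51.6%, 66.3%, 94.6% and 87.5% of the regions. Where it did, the island reached further into the gene than upstream in the recurrent regions, with medians of 1246 bp downstream and 634 bp upstream in 8 to 14 lists. Coding promoter regions in all 15 lists had a median width of 2600 bp, and regions away from every TSS in all 15 lists 3700 bp. These are descriptions, since the lists that set recurrence also give width and score.

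Within each library, islands at lncRNA promoter regions scored lower than those at coding promoters and higher than those away from every TSS. The mean over libraries of the median score percentile was 53.4 ± 8.05 (SD, n = 15) at lncRNA promoters and 68.6 ± 6.36 at coding promoters. The difference of -15.2 had the same sign in 15 of 15 libraries (adjusted p = 0.000102, exact sign-flip permutation test, two-sided, adjusted over 5 comparisons by Benjamini-Hochberg; the raw p of 6.1e-05 is the smallest it can give). Against regions away from every TSS the difference was 24.8 percentile points, higher in 15 of 15 libraries with the same exact p-values. Median width did not pass the test, with 1980 ± 484 bp at lncRNA promoters, 1853 ± 374 bp at coding promoters and 1920 ± 594 bp away from every TSS (adjusted p = 0.277 for both, exact sign-flip permutation test). The share of regions marked was 27.3% ± 12.0 at lncRNA and 58.7% ± 18.6 at coding promoters, lower in 15 of 15 libraries by the same exact test (adjusted p = 0.000102). The regions come from the same 15 lists, so this share restates the recurrence above and is not a separate result. The lncRNA median was wider than the coding one in 8 libraries, equal in 3 and narrower in 4. With the same number of top-scoring islands from every list, as many as the shortest list holds, the score differences shrank to -3.20 against coding promoters and 12.1 against regions away from every TSS, and both still passed (adjusted p = 0.000992 and 0.000153, exact permutation test).

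The 24 regions with an island in every list included Malat1, Neat1, Xist, Lncpint and Kcnq1ot1. An island anywhere in the merged region counted, so the start site itself was not covered in every list. The leading TSS lay inside an island in 11 lists each at Malat1, Neat1 and Xist. It did so in 15 lists at Lncpint and 8 at Kcnq1ot1. Malat1, a nuclear RNA of the speckles that is among the most abundant lncRNAs of liver, had islands of 7800, 8200 and 8800 bp in the SD mice, 9200, 8200 and 8000 bp in the CR mice, 10000, 7000 and 9200 bp in the HF mice, 7600, 4600 and 5000 bp in the YD mice, and 4800, 5600 and 4400 bp in the RD mice. The 3 RD widths and 2 of the 3 YD widths were below every width in the other diets, and YD_1 lay among them. Median width at coding promoter regions was also lowest in RD_1, RD_3 and YD_2 (1400 bp each) and YD_3 (1200 bp). It was 1600 to 2400 bp in the other libraries, with 2000 bp in RD_2 and 2400 bp in YD_1. Whether the Malat1 widths differ beyond the width of islands in the whole library was not tested. The mean was 7227 bp and the mean score percentile 99.4. Its neighbour on chromosome 19, Neat1, the scaffold of paraspeckles, shared its region with Frmd8os and had islands of 1600 to 8400 bp with a mean of 4467 bp.

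Xist, the RNA that coats the inactive X chromosome, had islands of 3600, 1600 and 2200 bp in the SD mice, 3800, 2400 and 3600 bp in the CR mice, 3600, 3200 and 3600 bp in the HF mice, 2800, 3400 and 1000 bp in the YD mice, and 3400, 2200 and 1600 bp in the RD mice. The diets overlapped in width. Lncpint, a lincRNA induced by p53, had islands of 5600 to 8000 bp in SD_1, SD_2, SD_3, CR_2, CR_3, the HF mice, YD_1 and RD_2. They were 5000 bp in RD_1 and 1200 to 2400 bp in CR_1, YD_2, YD_3 and RD_3. Kcnq1ot1, the imprinted antisense RNA of the Kcnq1 domain, had narrow islands with a mean of 2240 bp, from 600 bp in RD_1 to 3400 bp in SD_1, HF_2 and RD_2. The narrowest were at 1700020I14Rik, which RefSeq names Oip5os1 (mean 1987 bp), and at Lrrc75aos2 (mean 1667 bp). The Lrrc75aos2 region overlapped 2410006H16Rik and its small nucleolar RNAs Snord49a, Snord49b and Snord65 in RefSeq, and no island held the leading Lrrc75aos2 TSS.

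The widest mean belonged to BC002059, with islands of 3800 bp (HF_3) to 35400 bp (RD_2) and a mean of 16240 bp. Gm13938, antisense inside the titin gene Ttn, followed with a mean of 16053 bp and a range from 4200 bp (YD_3) to 52600 bp (RD_2). Gm26734 (11907 bp), Gm39469 (10120 bp) and Gm26779 (8840 bp) came next. In contrast to these, the region of AY036118, Gm26917 and Gm42418 on chromosome 17 had islands of 6200 to 7000 bp in all 15 libraries and a mean score percentile of 99.9. RefSeq places Rn18s-rs5, a ribosomal RNA sequence, in that region.

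**Figure D2:**
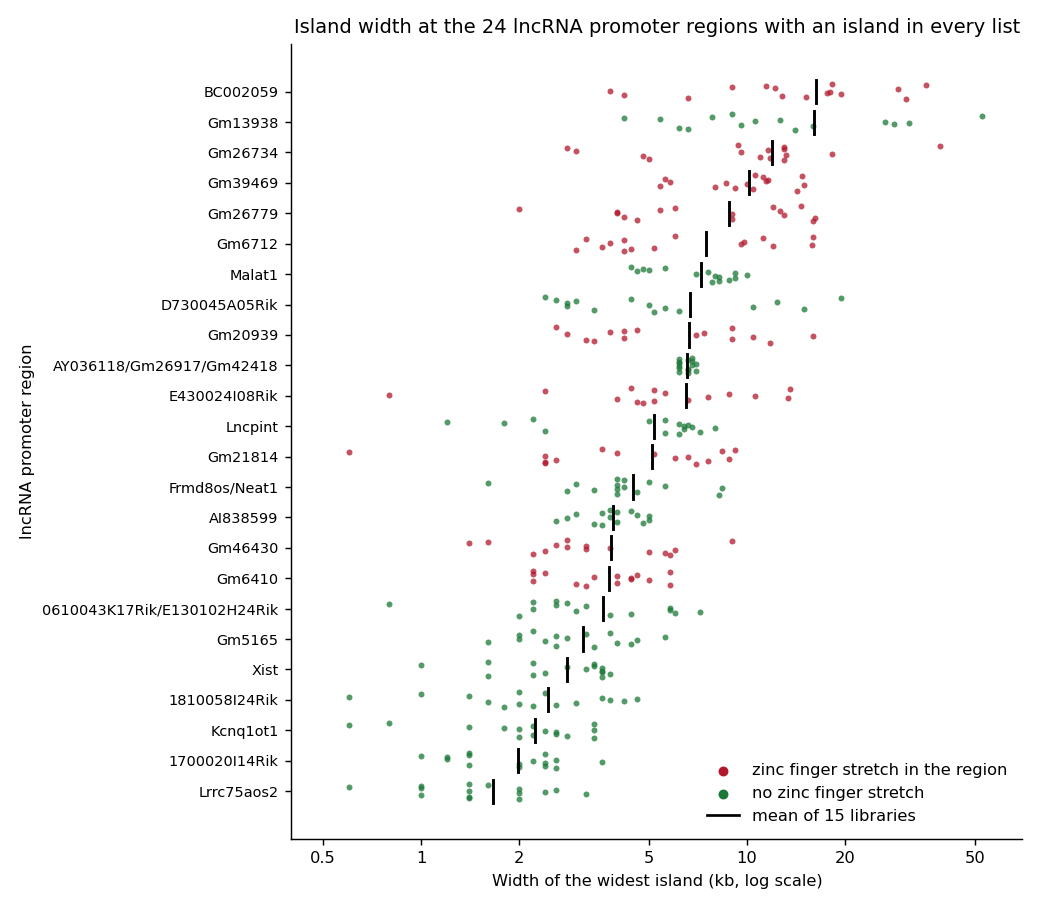
Width of the widest island (x axis, kb, log scale) at each of the 24 lncRNA promoter regions with an island in every list (y axis, sorted by mean). Each point is 1 library and each black bar the mean of 15 libraries; red marks the 10 regions that hold the zinc finger stretch. Means run from 1667 bp at Lrrc75aos2 to 16240 bp at BC002059.

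A repeated coding stretch was shared by many of these wide regions. Bases 13 to 26 of the BC002059 window, ACTGGAGAGAAACC, occurred 4 times in it. They code for the linker between C2H2 zinc fingers. This stretch was searched on both strands and was chosen after seeing the data. It was found in 16 of the 622 regions (2.57%), in 0.621% of coding promoter regions and in 0.143% of regions away from every TSS. Among regions in all 15 lists it was in 10 of 24 (41.7%), against 2.61% of coding promoter regions and 14.3% of regions away from every TSS. Per kb of those regions, which differ in width, there were 0.229 copies at lncRNA promoters, 0.0235 at coding promoters and 0.0394 away from every TSS. It was in 1 of the 622 promoter windows, that of BC002059, from which it was taken. It was in 0 of the windows at the 5′ ends of 8263 lncRNA genes. In all 21755 coding genes it was in 0.0322% of the windows. Outside BC002059, the copies therefore lay outside the leading windows, and other TSSs of the regions were not searched. Those 10 regions held 103 copies, from 22 at Gm20939 and 16 at Gm21814 to 4 at Gm6410. Islands covered between 44 of the 103 copies (HF_3) and 102 (CR_3 and HF_1).

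The 10 regions with the stretch had few CpGs per kb of region and were wide. They held a median of 5.39 CpGs per kb, and their mean widths ran from 3773 to 16240 bp with a median of 7047 bp. The other 14 held 24.7 CpGs per kb, with mean widths of 1667 to 16053 bp and a median of 3760 bp. The promoter window was CpG-rich in 1 of the 10 and in 8 of the 14. The regions with the stretch had the wider median island in 14 of 15 libraries, and HF_3 was the exception, with 3200 against 4800 bp. The stretch was taken from BC002059, the widest of them, and a wider region has more room for a copy. The contrast in width is therefore a description and not a test. Chromosome 17 held 4 of the 10. How reads from such repeated sequence were placed, with a MAPQ minimum of 1, was not tested.

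The median CpG content was higher in regions of more lists. The median number of CpGs in the 300-base promoter window was 3 in regions of 1 list, 4 in 2 to 7 lists, 6 in 8 to 14 lists and 8.5 in 15 lists. Windows with 10 or more CpGs made up 14.3%, 23.0%, 39.8% and 37.5% of the regions in the same order, and 22.7% of all 622. The share was 7.71% in 5357 lncRNA genes over 5 kb from a coding TSS with no region within 1 kb, and 53.9% in all coding genes. Windows of these genes lie at the 5′ end of the gene. Those of the 622 regions lie at a leading TSS chosen by its islands, so the sets are not fully alike. The 141 CpG-rich regions were found in a median of 5 lists with 32.6% in 8 or more, and the 481 others in a median of 2 lists with 14.8% in 8 or more.

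**Figure D3:**
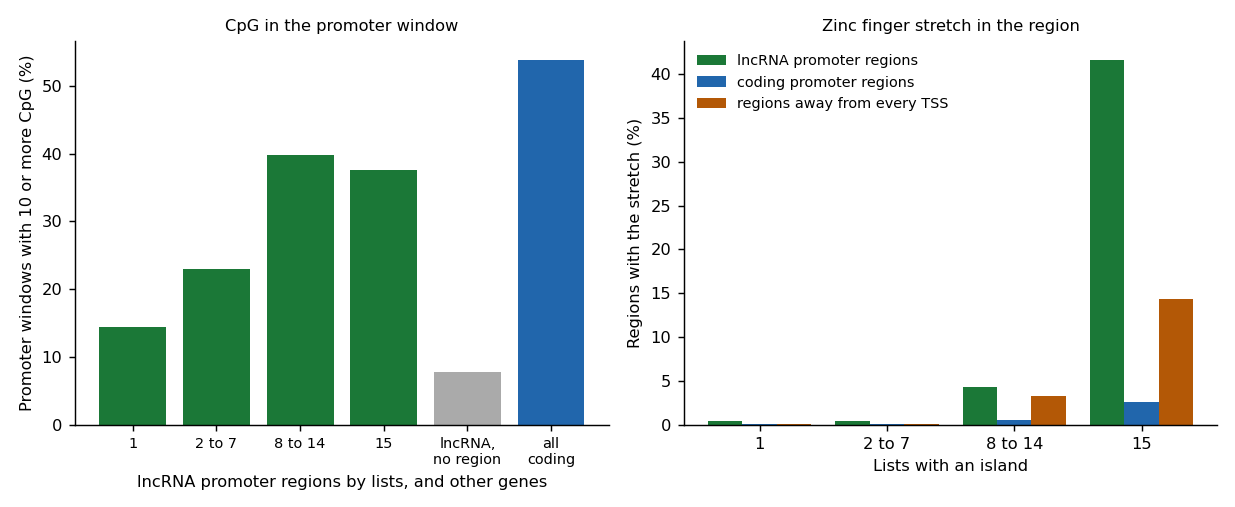
Left, percentage of promoter windows with 10 or more CpGs (y axis) for lncRNA promoter regions by number of lists (green), lncRNA genes with no region (grey) and all coding genes (blue), from 7.71% to 53.9%. Windows lie at the leading TSS for green bars and at the 5′ end of the gene for the others. Right, percentage of regions that hold the zinc finger stretch (y axis) by number of lists and class, highest at 41.7% for lncRNA promoter regions in 15 lists.

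The number of marked lncRNA promoters differed widely between mice and was highest in HF and lowest in YD. SD mice had an island at 212, 162 and 121 of the 622 regions, CR mice at 144, 163 and 302, HF mice at 288, 238 and 217, YD mice at 90, 84 and 92, and RD mice at 112, 238 and 88. The 3 HF mice lay above the 3 SD mice and the 3 YD mice lay below them. CR_3 and RD_2, with the longest lists, lay far above the other mice of their diets.

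HF had a mean of 39.8% ± 5.86 (SD, n = 3) of the regions marked against 24.2% ± 11.1 in the remaining 12 mice, which is 15.6 percentage points higher (exact permutation test, two-sided, p = 0.0396, adjusted p = 0.0989 over 5 diets). YD had 14.3% ± 0.669 against 30.6% ± 11.1, a difference of -16.4 points (exact p = 0.0242, adjusted p = 0.0989). Neither passed the threshold of 0.05 after adjustment. CR differed by 6.62 points (exact p = 0.418), RD by -4.84 (exact p = 0.558) and SD by -1.02 (exact p = 0.919). Without CR_3 the HF difference was 19.3 points and passed (adjusted p = 0.0275, exact permutation test). Without both CR_3 and RD_2 it was 23.2 points (adjusted p = 0.0175, exact). These libraries had the highest shares outside HF, 48.6% and 38.3%, so leaving them out had to raise the difference. Over each mouse left out in turn, the adjusted p for HF ran from 0.0275 to 0.385 (exact permutation test). With equal numbers of top-scoring islands, the HF difference was 0.918 points and the YD difference -2.20.

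Against SD alone, HF was higher by 13.3 points and YD lower, at -12.3 points, each with the smallest p that 3 mice against 3 can give, 0.1 (exact permutation test). CR differed from SD by 6.11 points (exact p = 0.6) and RD by -3.05 (exact p = 0.7). Coding promoter regions had the same order, with 82.1% marked in HF, 61.2% in SD and 34.2% in YD (exact p = 0.1 for HF and for YD against SD). CR_1, CR_2, RD_1, HF_2 and HF_3 carry the word PATChIP in their library names and the 10 others ChIP, with means of 28.1% and 27.0% of the regions marked (exact permutation p = 0.867). Among the ChIP libraries YD differed from the others by -18.2 points (3 mice against 7, exact p = 0.0583) and the single HF library by 21.5, where no test can pass the threshold. Among the PATChIP libraries HF differed by 14.1 points (2 against 3, which cannot give an exact p under 0.1), and no YD mouse was among them. In bulk chromatin, fewer cells with the mark and less of it per cell cannot be told apart.

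**Figure D4:**
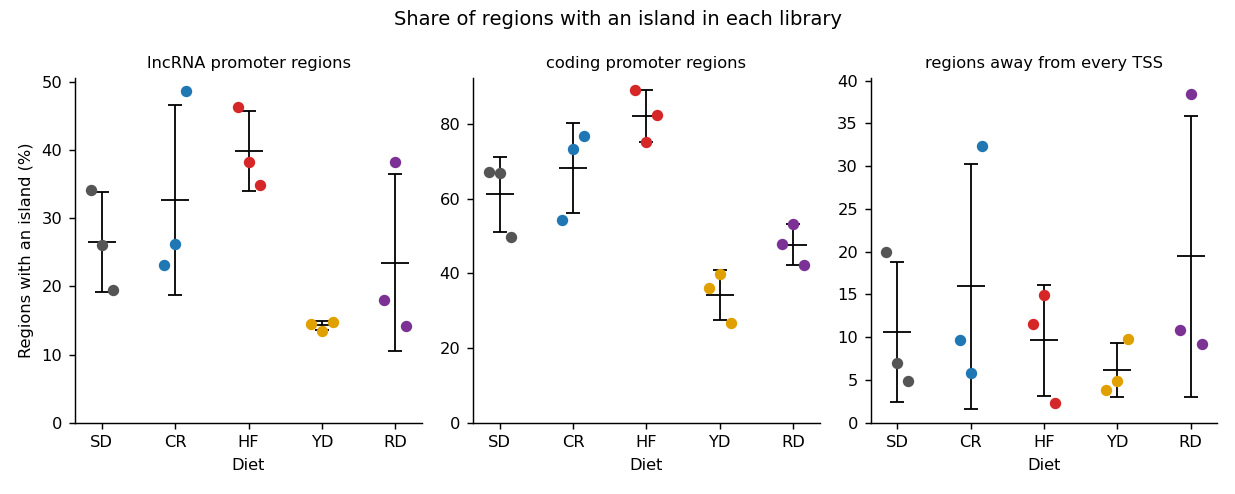
Percentage of lncRNA promoter regions (left), coding promoter regions (middle) and regions away from every TSS (right) with an island in each library (y axis) by diet (x axis). Points are mice and bars the mean ± SD of 3 mice; HF stands at 39.8% and YD at 14.3% in the left panel.

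Relative to coding promoters, no diet passed the test in the number of marked lncRNA promoters. Per 100 coding promoter regions with an island, there were 2.13 ± 0.334 lncRNA promoter regions in SD mice, 2.34 ± 0.705 in CR mice, 2.40 ± 0.262 in HF mice, 2.14 ± 0.552 in YD mice and 2.36 ± 1.05 in RD mice (SD, n = 3 each; exact permutation test of each diet against the others, adjusted p = 0.868 for every diet). RD_2 at 3.57 and CR_3 at 3.13 were the highest libraries. Median island width over the 24 regions in every list was 4633 ± 808 bp for SD, 5500 ± 1652 bp for CR, 4833 ± 1206 bp for HF, 3900 ± 1868 bp for YD and 4633 ± 1401 bp for RD. No diet passed the test in width (adjusted p from 0.665 to 0.938, exact permutation test).

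The mean share marked ran from 18.9% in YD to 66.2% in HF at CpG-rich promoters, and from 12.9% in YD to 32.1% in HF at the others. Of the 141 CpG-rich regions, HF mice had 73.8%, 55.3% and 69.5% marked, CR mice 36.9%, 52.5% and 61.0%, SD mice 41.8%, 41.1% and 30.5%, RD mice 26.2%, 34.8% and 18.4%, and YD mice 20.6%, 20.6% and 15.6%. The HF mice lay above every SD, RD and YD mouse. Of the 481 CpG-poor regions, HF mice had 24.7% to 38.3% marked, SD mice 16.2% to 31.8%, CR mice 18.5% to 44.9%, RD mice 12.9% to 39.3% and YD mice 11.4% to 14.6%, so that YD overlapped with RD alone and the other diets overlapped with each other. The split was made after seeing the data and was not tested.

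Regions were counted as gained when at least 2 of 3 mice of a diet and no SD mouse had an island, and as lost in the reverse case. The 4 comparisons share the 3 SD mice. In HF 55 of the 265 regions with an island in at least 2 of the 6 HF and SD mice were gained (20.8%; 12.3% of all merged regions) and 5 were lost (1.89%; 3.3% of all). In CR 32 of 241 were gained (13.3%; 10.5% of all) and 9 lost (3.73%; 2.63%). In RD 12 of 204 were gained (5.88%; 11.7%) and 24 lost (11.8%; 6.36%). In YD 4 of 162 were gained (2.47%; 1.9%) and 42 lost (25.9%; 22.5%). The lncRNA shares in CR and YD were near those of all regions. The HF gains were above and the RD gains below the share of all regions, and the RD losses above it. The share of all regions mixes classes that differ. RD gains were 0.778% of coding promoter regions and 22.0% of regions away from every TSS, and RD losses 9.76% and 3.24%. In the same order, HF gains were 10.7% and 13.7%, CR gains 4.60% and 17.6%, and YD losses 23.7% and 20.4%. These are counts with no test, and they depend on list length. With equal numbers of top-scoring islands from every list, HF had 7 gains and 10 losses, so the balance turned, CR gains were 11 and YD losses 14.

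When all 3 mice of a diet against no mouse of the second diet were asked for, 16 of 144 regions were gained in HF (11.1%; 5.26% of all merged regions) and none lost (0.313% of all). In YD none of 81 was gained (0.0922% of all) and 12 were lost (14.8%; 12.3% of all). In CR 2 of 103 were gained (1.94%; 2.15% of all) and 1 lost (0.971%; 0.259% of all). In RD 3 of 84 were gained (3.57%; 2.52% of all) and 7 lost (8.33%; 3.27% of all). Single libraries moved these counts. With 1 mouse left out, both remaining mice of its diet had to agree. Without CR_3 the CR gains fell to 3 and the losses rose to 19, and without RD_2 the RD gains fell to 1 and the losses rose to 42. HF gains were 16 without HF_1 and 26 without HF_3. Without SD_1, CR gains were 50, RD gains 25, YD losses 16 and RD losses 11. YD losses were 18 and RD losses 8 without SD_2. CR gains were 16 without CR_1 and 17 without CR_2, and RD gains were 7 without RD_1 and 7 without RD_3. The small counts moved too: CR losses were 3 without SD_1 and 2 without SD_2, and HF losses were 1, 1 and 3 without SD_1, SD_2 and SD_3 and 11 without HF_2. YD gains were 2, 1 and 1 without YD_1, YD_2 and YD_3.

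CpG-rich windows were found in 22 of the 55 HF gains (40.0%), against 37.0% of the 265 regions counted for HF, and in 10 of the 32 CR gains (31.3%), against 34.0% of the 241 counted. They were found in 16 of the 42 YD losses (38.1%), against 34.6% of 162, and in 11 of the 24 RD losses (45.8%), against 30.4% of 204. Of the 12 RD gains 1 was CpG-rich, as were 1 of the 9 CR losses, 1 of the 5 HF losses and none of the 4 YD gains. These shares were not tested.

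Islands at the following regions were present in some diets and absent in others, with no test for a single region. Over all 41 named regions, the number of lists with an island moved beyond 1.5 times at 21 with equal numbers of top-scoring islands, and at 9 where the island itself had to lie within 1 kb of the TSS. Jpx, a lncRNA that activates Xist, had islands of 1400, 400 and 1600 bp in SD, 2200, 2000 and 2200 bp in CR, 3600, 2400 and 2000 bp in HF, and 3200 and 1400 bp in YD_1 and YD_2, with none in YD_3 or in any RD mouse. Ftx, another activator of Xist, had a region with islands of 3600, 1800 and 1200 bp in the 3 HF mice, 800 and 1400 bp in CR_2 and CR_3 and 3600 bp in YD_1, and none in SD or RD. A second Ftx region was marked in the 3 HF mice and in CR_2. With equal numbers of top-scoring islands, Jpx was in 9 of its 11 lists, the first Ftx region in 4 of 6 and the second in none of 4. The leading TSS lay inside an island in 5 of 11 lists at Jpx. At the first Ftx region it did so in 3 of 6 lists, and at the second in 3 of 4. The Xist region itself had an island in every mouse.

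EU599041 was marked in no SD mouse and in all 3 mice of CR, HF and RD, with islands of 3000, 1400 and 1800 bp in CR, 3000, 2600 and 1400 bp in HF, and 2600, 4400 and 1200 bp in RD. YD_1 and YD_3 had islands of 2200 bp and YD_2 had none. The region holds 3 copies of the zinc finger stretch, and the TSS shown above lay inside an island in 4 of the 11 lists. It was in 6 lists with equal numbers of top-scoring islands and in 7 where the island had to lie within 1 kb of the TSS. In the opposite direction, Gm27017 had islands of 1000 to 5800 bp in all 9 SD, CR and HF mice and none in YD or RD. Gm36251 was lost in RD, and Gm47354 and Gm41496 in YD. In CR, 1810008I18Rik had no island, against widths of 1600, 1800 and 2400 bp in SD. Gm47001 was gained in CR, 4933433G19Rik in HF, and Gm44947 and Gm48439 in RD.

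A single region, at 2410017I17Rik on chromosome 17, was marked in all 3 mice of 1 diet and in none of the other 12. It had islands of 1000, 1000 and 1200 bp in HF, none of which was left with equal numbers of top-scoring islands. It was 1 of 130 regions that could be so counted (0.769%; 1.12% of all merged regions). No lncRNA promoter region was found in this way in SD, CR, YD or RD alone, where the shares of all merged regions were 0.0321%, 0.149%, 0% and 0.394%. None was missing from 1 diet alone and present in the 12 other mice. Over all merged regions that share was 2.75% for YD, 0.0446% for RD and 0% for SD, CR and HF.

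Of 12 nuclear and X-linked lncRNAs listed, 6 had a lncRNA promoter region under the listed name (Malat1, Neat1, Xist, Lncpint, Jpx and Ftx). The rest had a coding TSS nearby, no island, another gene type or no entry under that name. Oip5os1 had no such entry but is the RefSeq name at 1700020I14Rik, whose region was in all 15 lists. Others without an entry may likewise have a region under another name. Of 32 lncRNAs in a list drawn up for hosts of small nucleolar RNAs or miRNAs, 5 had a region under the listed name. The list also held Mirt1 and Mirt2, which are not known hosts. Snhg6 was marked in 14 lists, all but YD_3, and Snhg20 in 13, all but CR_1 and YD_1. The leading TSS lay inside an island in 13 of these lists at Snhg6 but only 2 at Snhg20. At Mir17hg and Meg3, given below, it lay inside an island in 0 lists. Mir155hg, the host of miR-155, was marked in 7 lists and Mir17hg, the host of the miR-17 cluster, in 1 (SD_3). Mirt1 was marked in 7. Of 9 imprinted lncRNAs, Kcnq1ot1 was in 15 lists, while Airn was in 4 (CR_3 and the 3 HF mice), Mirg in 2 at most and Meg3 in 1 (HF_2, 2200 bp). Airn silences Igf2r, and its island lay inside the Igf2r body.

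Of 18 lncRNAs in a list headed developmental, 4 had a region, with Pantr1 in 6 lists and Bvht in 1. The list also held lncRNAs better known for other roles. Among these, Pvt1, which lies beside Myc, was in 4 lists and Trp53cor1, the p53 target also called lincRNA-p21, in 2. Of 14 lncRNAs listed for liver 2 had a region, 9030616G12Rik in 11 lists and Platr4 in 1 (CR_3, 400 bp). None of the 4 regions from the list headed developmental was in 8 or more lists, against 18.8% of all 622, whose median is 2 lists.

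**Figure D5:**
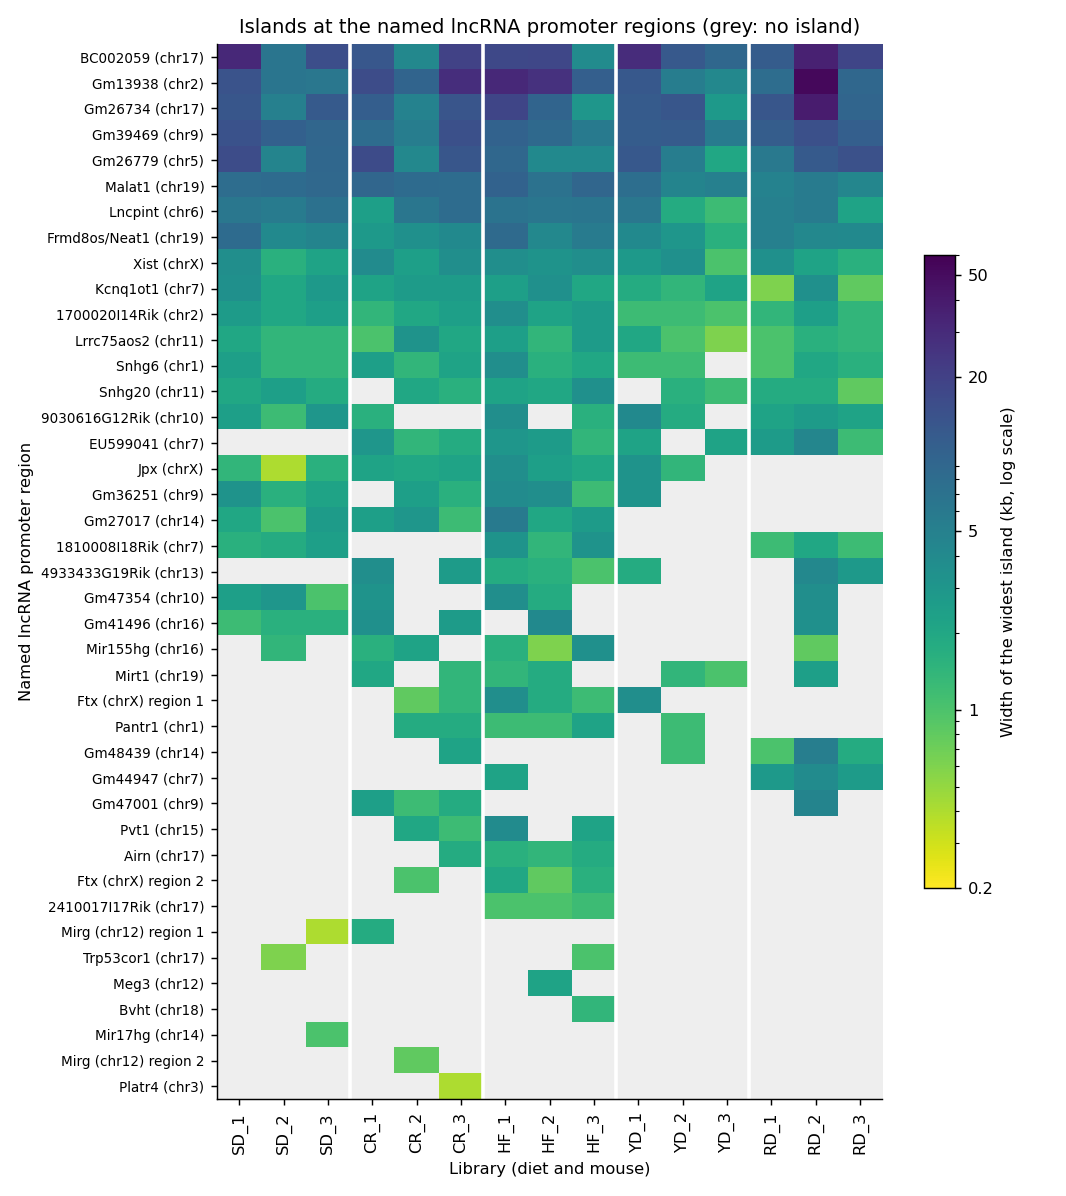
Width of the widest island (colour, kb, log scale) in each library (x axis, grouped by diet) at the named lncRNA promoter regions (y axis, sorted by number of lists and mean width). Grey marks no island; Malat1, Xist, Lncpint and Kcnq1ot1 are coloured in all 15 columns, EU599041 is grey in the SD columns and Jpx in the RD columns.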

How the data were processed

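The authors mapped 50 bp single-end reads with bwa to mm10 and kept non-duplicate reads of MAPQ 1 or higher on chromosomes 1 to 19 and X. They called islands in each library with SICER2 (fragment 200 bp, window 200 bp, gap 400 bp, FDR under 0.05). Each deposited list holds the position of every island and its score. The score, as deposited by the authors, adds up, over the enriched windows, the negative natural logarithm of a Poisson probability and is not scaled between libraries.

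scipy 1.17.1, numpy 2.4.6, matplotlib 3.10.9 and pandas 2.3.3 in Python 3.11.15 were used with GENCODE M21, whose lncRNA types are lincRNA and antisense, and the GRCm38 genome. An island counted in a library when any island of that library lay in the merged region, and its width is that of the widest. The leading TSS is the lncRNA TSS near islands of the most libraries. Read numbers were recovered from scores of single-window islands with an effective genome fraction of 0.74. They came within 0.00046 of a whole number, and all intervals given are between mice.

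Diets and replicate numbers came from the labels. The mouse is the replicate. Means were compared by two-sided exact permutation tests with a threshold of 0.05, adjusted by the Benjamini-Hochberg method, and scripts were tested on simulated data. Named genes are those of 5 lists of well-known lncRNAs with a region, the widest and narrowest regions in every list, and the leading regions gained or lost in each diet. The regions and lists were chosen with earlier results of these data known. Alternatives covered the islands kept, distances, TSSs, libraries, mice required, log2 scale and pairing. Replicate numbers did not pair the mice.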

Additional observations from a re-analysis of the deposited data

How the results depend on the processing

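The lower share and score at lncRNA than at coding promoters, and the higher score than away from every TSS, kept direction and significance when any mouse was left out (differences of -32.4 to -30.1 points, -16.1 to -14.1 and 24.3 to 26.6 percentile points). With the same number of top-scoring islands per list, the score differences fell to -3.20 against coding promoters and 12.1 against regions away from every TSS and the share difference to -22.3 points, and all passed. There lncRNA islands were 520 bp wider than coding ones and passed, and narrower than those away from every TSS (-320 bp). In that setting CR gains were 11, HF gains 7, HF losses 10, YD losses 14, regions in 1 list 70 and in every list 10. The share difference of SD was then 3.49 points, its width difference 267 bp, and the ratio to coding regions differed by -0.202 in CR, -0.477 in HF and 0.457 in YD. With a lncRNA TSS within 3 kb, CR losses were 15, HF losses 11, RD gains 22, regions in 1 list 446 and the SD width difference 83.3 bp. With no coding TSS within 20 kb, the width difference to regions away from every TSS was 107 bp and passed, HF gains were 33 and the HF ratio difference -0.0353. With only the 5′ end of each gene, the share differences of HF (18.8 points) and YD (-18.9) passed (adjusted p = 0.0330 for both, exact permutation test). With the island itself within 1 kb of the TSS, HF losses were 3 and regions in every list 12. Without CR_3 and RD_2 the share difference was 2.48 points in SD, -0.0980 in CR and 23.2 in HF, the ratio differences 0.0393 in SD, -0.169 in CR and -0.388 in RD, and the SD width difference 283 bp. CR gains were then 1, CR losses 18, RD gains 1 and RD losses 41. On the log2 scale the SD differences were 0.066 in share and 0.030 in width. With all 3 mice required, gains and losses were 2 and 1 in CR, 16 and 0 in HF, 0 and 12 in YD, and 3 and 7 in RD. Over regions in every list, chosen after seeing the data for their width and so a description without a test, lncRNA islands were wider by 2153 bp than coding ones and by 740 bp than those away from every TSS, and the score differences were 5.20 and 1.95. Leaving out each mouse, the share differences ranged from -5.01 to 2.61 points in SD, -1.47 to 11.49 in CR and 13.2 to 19.3 in HF, the ratio differences from -0.315 to 0.360 in CR, -0.469 to 0.0633 in YD and -0.493 to 0.451 in RD. Width differences ranged from -517 to 250 bp in SD, -467 to 1033 in HF and -767 to 783 in RD, and from 42.9 to 92.9 bp against regions away from every TSS. Gains and losses then ranged from 3 to 50 and 2 to 19 in CR, 16 to 82 and 1 to 11 in HF, 1 to 6 and 16 to 54 in YD, and 1 to 25 and 8 to 42 in RD. The cause of these changes was not tested. With the replicate block, labels permuted only among same-numbered mice, the share differences gave adjusted p = 0.2 in HF and 0.16 in YD (exact permutation test), and the block changed no call. The correlation of the share between mice of the same number was -0.235, so the numbers do not pair them. An island missed in a short list is not evidence that the mark is absent. The shortest list, YD_1, had the most recovered reads (15449854), and the longest, CR_3, had 8716790. What set list length was not tested.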

Other observations

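Protein-coding zinc finger genes, with symbols that start with Zfp, Zscan, Zbtb or Zkscan, were the nearest coding neighbours of 32 of the 622 lncRNA promoter regions (5.14%). By recurrence the share was 3.28% in regions of 1 list, 3.83% in 2 to 7 lists, 11.8% in 8 to 14 lists and 12.5% in 15 lists, where it is 3 of 24 regions. The distance to a coding TSS went the other way, with medians of 111382 bp in 1 list, 65734 bp in 2 to 7 lists, 34717 bp in 8 to 14 lists and 36381 bp in 15 lists. Several lncRNA genes had more than 1 marked region, with 36 gene symbols at more than 1, among them Ftx, Mirg, EU599041 and BC002059.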
